A study of Mus musculus with 12 samples.

Results

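Gli1, Gli2 and Gli3 encode the 3 zinc finger transcription factors at the end of the hedgehog pathway, and open chromatin at their loci was followed across sorted cell populations of mouse SHH medulloblastoma. A peak counted for one of them when its centre fell in the gene or at most 100 kb away and no other protein-coding gene was nearer. This gave 108 of the 218906 peaks of 12 libraries, which merged into 33 of 44242 regions, with 2 at Gli1, 22 at Gli2 and 9 at Gli3. All libraries were ATAC-seq, in which a transposase inserts adapters into accessible DNA, of cells sorted from endpoint brain tumours of Ptch1+/- mice without treatment. Every group, the SOX2- bulk cells included, came from Ptch1+/- mice, so no group is a normal tissue control. An eGFP signal separated SOX2+ stem-like cells (4 libraries) from SOX2- cells (4 libraries). Within SOX2+ cells an RFP signal separated SOX2+/MKI67+ cycling cells (2 libraries) from SOX2+/MKI67- cells that do not cycle (2 libraries). The labels do not say that replicates came from separate animals, so the spread behind each p-value is that of these libraries and could be technical.

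In the hedgehog pathway a ligand binds PTCH1 and releases the transducer SMO, and SMO then frees the GLI proteins from SUFU in the primary cilium. GLI2 is the main activator, GLI3 acts mostly as a repressor after it is trimmed by proteolysis, and GLI1 is an activator whose own gene is a target of the pathway. Granule neuron progenitors of the cerebellum divide in response to this signal, and loss of PTCH1 function in them can start SHH medulloblastoma.

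The start regions of Gli2 and Gli3 are shown because they are among the regions listed most often at their genes. The 250 bases before each gene start are printed below 5′ to 3′ on the gene's own strand, from RefSeq sequence of GRCm38.p6. Gli2 lies on the minus strand at chr1:119053620-119053869 and Gli3 on the plus strand at chr13:15463473-15463722. Capitals mark GGGCGG, the GC box of SP family factors, and CCACCC, the core of the GLI binding site, on either strand.
Gli2: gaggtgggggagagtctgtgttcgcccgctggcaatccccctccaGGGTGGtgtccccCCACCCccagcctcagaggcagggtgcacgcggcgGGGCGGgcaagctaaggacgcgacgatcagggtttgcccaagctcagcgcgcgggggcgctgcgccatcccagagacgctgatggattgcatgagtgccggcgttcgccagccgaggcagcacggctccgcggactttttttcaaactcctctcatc
Gli3: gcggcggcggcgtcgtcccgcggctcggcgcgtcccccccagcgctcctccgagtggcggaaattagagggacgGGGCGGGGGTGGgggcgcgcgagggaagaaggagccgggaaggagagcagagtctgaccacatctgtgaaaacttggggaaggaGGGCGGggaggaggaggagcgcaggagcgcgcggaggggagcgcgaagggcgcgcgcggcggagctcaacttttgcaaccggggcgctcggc
The windows searched ran from 250 bases before to 50 bases after the start. That of Gli2 was 67.3% G or C with 28 CpG and that of Gli3 71.0% with 39 CpG, against medians of 52.7% and 7 CpG over 32851 promoters. CCACCC stood at bases 46 to 51 on the minus strand and at 59 to 64 on the plus strand of the Gli2 window, and at 81 to 86 on the minus strand of the Gli3 window. It is found in 31.5% of all promoters. GGGCGG stood at 94 to 99 of Gli2 and at 75 to 80 and 159 to 164 of Gli3, the first of these directly beside CCACCC, and is found in 35.7%. GACCACCCA, a full GLI site, was in neither window and is in 0.253% of promoters. The letters ACAAT (31.0%) and ACAAAG (18.7%), which occur in sites of SOX factors, were in neither window. The E-box CANNTG (72.3%) stood at 135 to 140 of Gli3 and was not in the Gli2 window. The listed Gli3 start region covers only the first 83 bases of its window, so matches past base 83 lie outside that region. A match is a run of letters and was not tested as a binding site.

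The lists held 7009 to 26206 peaks in SOX2- libraries, 9377 to 25272 in SOX2+, 17615 to 19229 in SOX2+/MKI67- and 18738 to 24694 in SOX2+/MKI67+ libraries. The sort was visible at Sox2 itself, with 0, 1, 1 and 1 peaks in SOX2- and 5, 2, 6 and 4 in SOX2+ libraries, groups that do not overlap. Its log2 difference was 1.49 (limma adjusted p = 0.0589, and 0.0198 when genes with a single value in all libraries are left out). Mki67 had 2 and 1 peaks in SOX2+/MKI67- and 2 and 5 in SOX2+/MKI67+ libraries, which overlap (log2 difference 0.64, limma adjusted p = 1). Of the cell type marker lists, that of the oligodendrocyte lineage separated the SOX2 groups. That of stem and radial glia did so with Sox2, the gene of the sort, counted in it. The lists of granule neuron progenitors, astrocytes, endothelial cells, and microglia and macrophages had ranges that overlap. Per 10000 peaks, 6 oligodendrocyte lineage genes held 7.64 to 11.7 peaks in SOX2+ against 0 to 3.82 in SOX2- libraries, with Sox10 and Nkx2-2 at 0 in SOX2- libraries. In the same unit, 6 stem and radial glia genes, Sox2 among them, held 4.75 to 6.62 in SOX2+ against 2.85 to 4.61 in SOX2- libraries. This list was not counted without Sox2, so its separation cannot be told apart from that of Sox2 itself. The 6 granule neuron progenitor genes held 0 to 6.62 in SOX2+ against 5.71 to 8.40 in SOX2- libraries, with Barhl1 and Nhlh1 at 0 in SOX2+ libraries. The 5 genes of microglia and macrophages held 0 to 1.38 per 10000 peaks in SOX2- and 1.02 to 1.98 in SOX2+ libraries, with Csf1r, Cx3cr1 and Aif1 at 0 in all 4 groups. The granule neuron progenitor genes moved with the MKI67 sort, at 4.86 to 5.34 in SOX2+/MKI67+ and 2.27 to 3.12 in SOX2+/MKI67- libraries, which do not overlap. The 5 astrocyte genes did so too, at 4.27 to 5.26 and 2.60 to 3.97. With 2 libraries in each group these are descriptions without a test. The part of these cells in the results below was not tested, and in bulk sorts fewer cells with an open site and a less open site per cell cannot be told apart.

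Gli2, the activator gene, carried most of the GLI peaks, with fewer on average in SOX2+ than in SOX2- libraries, a difference that did not pass the test. The gene spans chr1:118834061-119054405 (220 kb, gene ID 14633) with no other protein-coding gene within 100 kb, so all 67 peaks of the window were its own. SOX2- libraries listed 2, 17, 2 and 11 peaks, SOX2+ libraries 2, 1, 4 and 8, SOX2+/MKI67- libraries 4 and 5, and SOX2+/MKI67+ libraries 4 and 7, in replicate order. SOX2- replicates 2 and 4 stood above the SOX2+ libraries, while SOX2- replicates 1 and 3 lay among them, so the groups overlap. The means were 8.0 ± 7.35 (SD, n = 4) in SOX2- and 3.75 ± 3.10 (n = 4) in SOX2+ libraries. The fit, which adjusts for list length, gave a log2 difference in peaks per gene of -0.94 ± 0.30 (SE, 95% interval -1.64 to -0.24, limma adjusted p = 0.224). The adjusted p was 0.143 with the single-value genes left out.

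List length moved with the number of Gli2 peaks. The 4 longest lists, of 21682 to 26206 peaks, held 7 to 17 Gli2 peaks, and the other 8 lists, of at most 19636, held 1 to 5. Over the 12 libraries the correlation of Gli2 peaks with list length was 0.768, as a description without a test. Per 10000 peaks of the list, Gli2 held 2.85, 6.49, 1.58 and 5.07 in SOX2- and 1.19, 1.07, 2.04 and 3.17 in SOX2+ libraries, which still overlap. Over 22 alternatives the sign stayed negative, and the limma adjusted p ran from 0.0706 to 0.932. The lowest came without SOX2- replicate 3 (log2 difference -1.20), and the highest without adjustment for list length (-0.71). Without SOX2- replicate 2, the longest list, the log2 difference was -0.80 (limma adjusted p = 0.473). With equal numbers of peaks taken from every list, Gli2 had too few peaks to be tested. The 22 therefore do not include that setting.

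**Figure D1:**
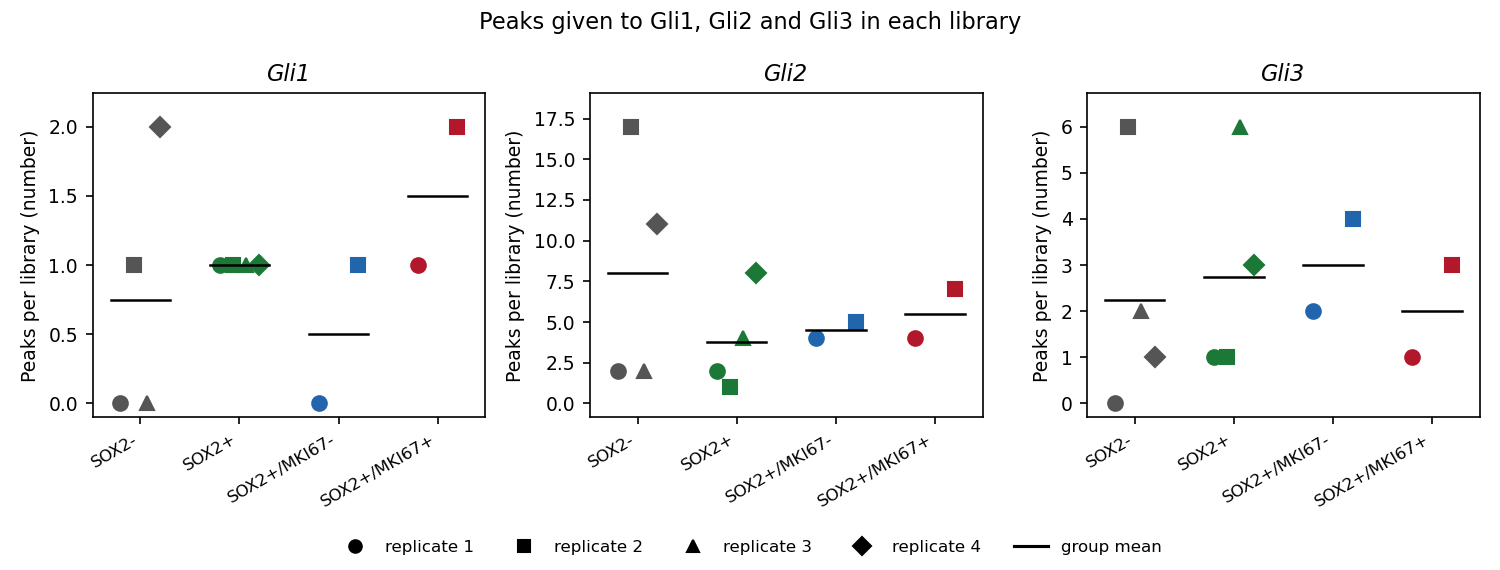
Number of peaks given to each gene (vertical axis) in every library, by sorted group (horizontal axis), with marker shapes for replicate numbers and a line for the group mean. At Gli2 the SOX2- libraries spread from 2 to 17 around a mean of 8.0, and the 4 SOX2+ libraries from 1 to 8.

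The Gli2 peaks formed 22 regions, 15 inside the gene span and 7 outside it. Of these, 8 were listed in a single library and 0 in all 12. SOX2- libraries listed 19 of the 22 and SOX2+ libraries 10, with 7 in common. There were 11 regions listed in SOX2- libraries and in no other group, but 7 of these came from SOX2- replicate 2 alone, the longest list. The rule for a region listed only in 1 SOX2 group, at least 3 of 4 libraries against 0 of 4, was met by 0 of the 33 GLI regions in either direction. Over all regions it was met by 4.1% for SOX2+ (1814) and 1.54% for SOX2- (680). These numbers depend on single libraries, since with 1 library left out all 3 remaining ones of the group must list the region. The SOX2+ number was 761, 802 and 711 without SOX2+ replicates 1, 3 and 4, and the SOX2- number 70, 120 and 71 without SOX2- replicates 2, 3 and 4.

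At 2 Gli2 regions, named after their values were seen, a single SOX2+ library kept the rule from being met. The region chr1:119001322-119001917, 52.0 kb into the gene from its start, was listed in SOX2- replicates 1, 2 and 4 and in SOX2+ replicate 3. Its rank in SOX2+ replicate 3 was 1.90. The rank is the percentile of a peak's -log10 q-value within its own list, higher for stronger peaks. Ranks of lists of different length are not compared. In the SOX2- lists the same region ranked at 20.9, 66.6 and 51.2. The region chr1:118954706-118955416, 98.6 kb into the gene, was listed in the same 4 libraries and in both SOX2+/MKI67+ libraries, with ranks of 34.1, 55.1 and 67.7 in the SOX2- lists and 27.6 in SOX2+ replicate 3. Without SOX2+ replicate 3 both would meet the rule for SOX2- against the other SOX2+ libraries, beside 1136 regions genome-wide, though the second is also listed in SOX2+/MKI67+ cells.

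The Gli2 regions listed most often were found in both SOX2 groups. The start region chr1:119053384-119053966, which covers the whole window searched above, was listed in 3 of 4 SOX2-, 3 of 4 SOX2+, 0 of 2 SOX2+/MKI67- and 2 of 2 SOX2+/MKI67+ libraries. Its summits lay from -178 to 46 bp relative to the gene start, and the authors' fold over local background was 2.80 to 4.29 with a -log10 q-value of 3.38 to 10.5. Inside the gene, chr1:119033783-119034286 at 19.6 kb was listed in 2 libraries of every group. A further region at 70.9 kb, chr1:118982396-118983026, was listed in 3 SOX2-, 2 SOX2+, 1 SOX2+/MKI67- and 2 SOX2+/MKI67+ libraries.

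**Figure D2:**
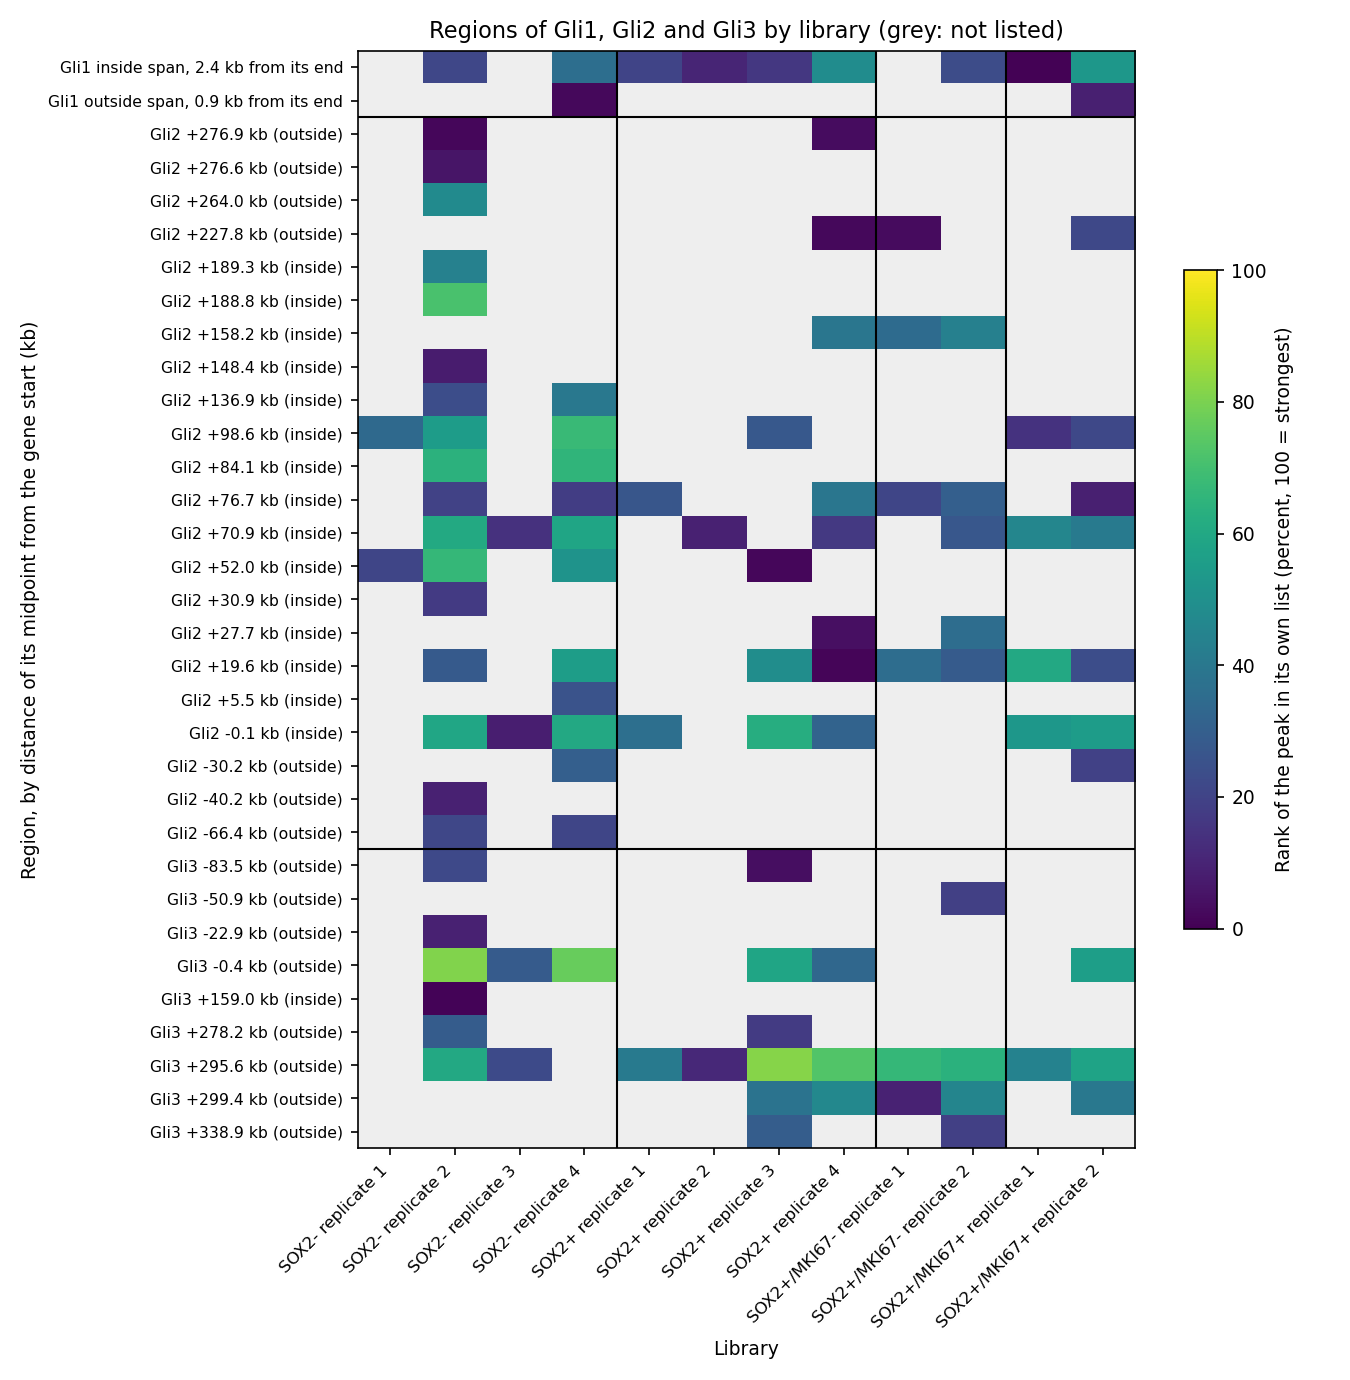
All 33 regions (rows, labelled by gene and by the distance of the midpoint from the gene start in kb, or for Gli1 from the nearer gene end) in the 12 libraries (columns). Colour gives the rank of the peak within its own list, and grey squares are regions that a list does not hold. SOX2- replicate 2 fills the most rows, and the Gli3 region at 295.6 kb fills the most columns, 10 of 12.

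Gli3, the repressor gene, had overlapping numbers of peaks in all groups, and its 2 most listed regions shared 5 libraries. The gene spans chr13:15463723-15730026 (266 kb, gene ID 14634), again with no other gene within 100 kb and 30 of 30 peaks its own. SOX2- libraries listed 0, 6, 2 and 1 peaks, SOX2+ libraries 1, 1, 6 and 3, SOX2+/MKI67- libraries 2 and 4, and SOX2+/MKI67+ libraries 1 and 3. The SOX2 groups overlap over almost their whole range. Means were 2.25 ± 2.63 (SD, n = 4) and 2.75 ± 2.36 (n = 4) in SOX2- and SOX2+ libraries, with a log2 difference of 0.19 ± 0.48 (95% interval -0.93 to 1.30, limma adjusted p = 1).

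Only 1 of the 9 Gli3 regions lay inside the 266 kb gene span, against 15 of 22 for Gli2, and that 1 was listed in a single library, SOX2- replicate 2. The start region chr13:15463001-15463555, centred 0.445 kb before the start and named after its values were seen, was listed in 3 of 4 SOX2-, 2 of 4 SOX2+, 0 of 2 SOX2+/MKI67- and 1 of 2 SOX2+/MKI67+ libraries. It held the strongest GLI peak by the authors' q-value, with a fold of 5.73 and a -log10 q of 19.4 in SOX2- replicate 2. A single peak, in SOX2+/MKI67+ replicate 2, reached into the window searched above and covered 83 of its bases.

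The region listed most often at any GLI gene lay beyond the end of Gli3. It spans chr13:15758843-15759815, which is 29.3 kb past the gene end and 295.6 kb from the start. It was listed in SOX2- replicates 2 and 3 and in every SOX2+, SOX2+/MKI67- and SOX2+/MKI67+ library. Its rank was 60.3 and 22.5 in the SOX2- lists and 40.7, 11.6, 81.7 and 73.0 in SOX2+ replicates 1 to 4. In the MKI67 sort the ranks were 66.5 and 63.7 without MKI67 and 44.4 and 57.9 with it. A neighbour at chr13:15762929-15763402, named after its values were seen, was listed in 0 of 4 SOX2-, 2 of 4 SOX2+, 2 of 2 SOX2+/MKI67- and 1 of 2 SOX2+/MKI67+ libraries.

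Taking the 7009 strongest peaks from every list removes the difference in list length and left 4 GLI regions. The Gli3 start region remained in SOX2- replicates 2 and 4 and in no other library. The region past the Gli3 end remained in SOX2+ replicates 3 and 4 and both SOX2+/MKI67- replicates, and in no SOX2- or SOX2+/MKI67+ library. The 2 Gli2 regions at 52.0 and 98.6 kb remained in SOX2- replicate 1 alone, whose list is the shortest and was kept whole. Gli1 had 0 peaks among these in every library. These are counts of libraries and were not tested.

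Gli3 lies on the proximal part of chromosome 13, whose share of all peaks moved with the SOX2 sort. Chromosome 13 below 70 Mb held 0.828%, 1.81%, 1.38% and 1.14% of the peaks in SOX2- replicates 1 to 4. It held 2.29%, 2.10%, 1.86% and 2.50% in SOX2+ replicates 1 to 4, so that the groups do not overlap. The share was 2.67% and 2.57% in SOX2+/MKI67- and 1.99% and 2.07% in SOX2+/MKI67+ libraries. Among the 7009 strongest peaks of each list the 2 SOX2 groups still did not overlap, at 0.828 to 1.71% and 1.81 to 2.17%. Above 70 Mb the SOX2- libraries held 1.81 to 1.88% and the SOX2+ libraries 1.62 to 1.87%, which overlap. With the number of peaks on proximal chromosome 13 in place of list length as the covariate, the Gli3 difference turned to -0.41 (limma adjusted p = 0.826), while the median over all genes moved to -0.15. The part of this share below 70 Mb in the Gli3 values was not tested further.

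**Figure D3:**
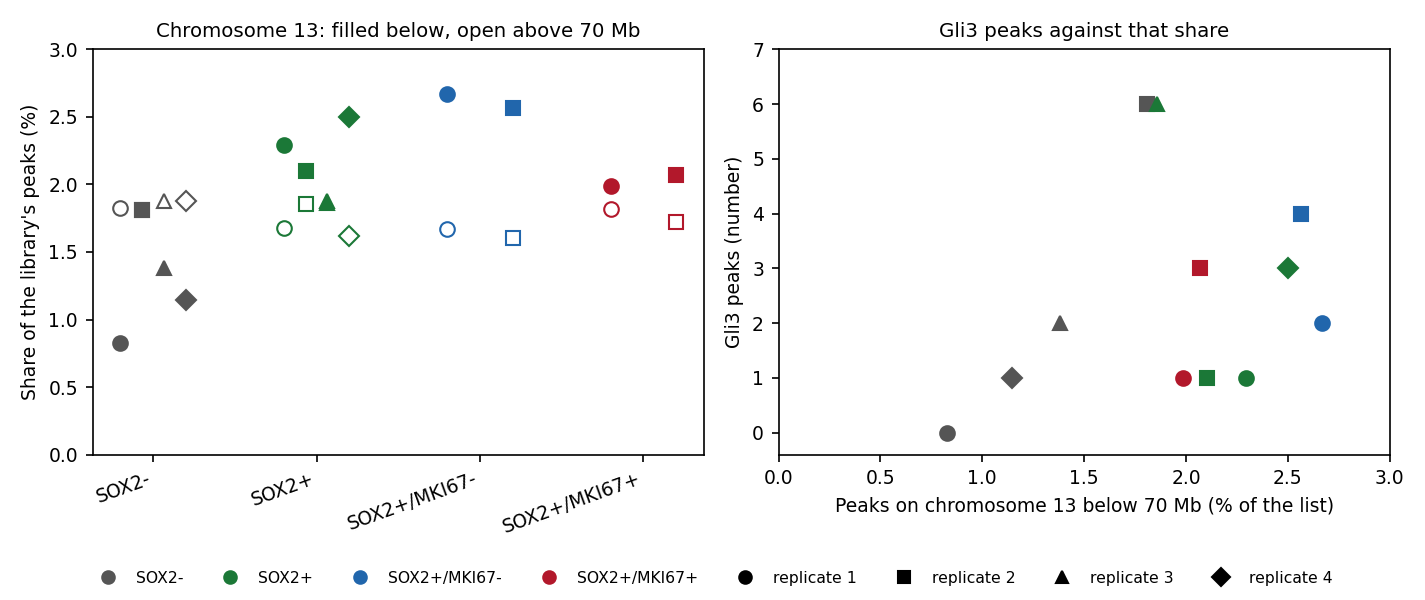
Left, share of each library's peaks on chromosome 13 (vertical axis, percent) below 70 Mb (filled) and above 70 Mb (open) by group. Right, Gli3 peaks against the share below 70 Mb. The filled SOX2- points lie from 0.828 to 1.81%, under the SOX2+ points at 1.86 to 2.50%, while libraries with 6 Gli3 peaks lie at 1.81% and 1.86%.

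Gli1, the target of the pathway, had few peaks in any group. The gene is short (chr10:127329882-127341579, 11.7 kb, gene ID 14632) and has 9 other protein-coding genes within 100 kb, so 64 of the 75 peaks around it went to neighbours and 11 to Gli1. SOX2- libraries listed 0, 1, 0 and 2 peaks, each SOX2+ library 1, SOX2+/MKI67- libraries 0 and 1, and SOX2+/MKI67+ libraries 1 and 2. The 2 libraries with 2 peaks are again among the 4 longest lists. The log2 difference between SOX2+ and SOX2- libraries was 0.27 ± 0.33 (95% interval -0.50 to 1.05, limma adjusted p = 0.837). It ranged from 0.05 without SOX2+ replicate 2 and 0.10 without SOX2- replicate 3 to 0.55 without SOX2- replicate 4. Of its 2 regions, chr10:127338894-127339383 lay inside the gene, 2.44 kb from its right-hand end on the chromosome, and was listed in 2 of 4 SOX2-, 4 of 4 SOX2+, 1 of 2 SOX2+/MKI67- and 2 of 2 SOX2+/MKI67+ libraries. Its rank ran from 0.640 in SOX2+/MKI67+ replicate 1 to 53.0 in SOX2+/MKI67+ replicate 2, with an authors' fold of 2.35 to 3.62 and a -log10 q of 2.34 to 9.54. The other region lay 0.883 kb outside the span and was listed in SOX2- replicate 4 and SOX2+/MKI67+ replicate 2.

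No GLI gene passed in either comparison. In the SOX2 comparison 0.86% of the 14185 genes tested passed (122, of which 105 were higher in SOX2+ libraries), and in the MKI67 comparison 0.211% (30). These shares depend on 1762 genes with a single value in all 12 libraries, which have no spread of their own. With them left out, 229 of 12423 genes passed in the SOX2 comparison and 0 in the MKI67 comparison, where 691 had an unadjusted limma p under 0.05.

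Cycling and non-cycling SOX2+ cells could not be told apart at the GLI genes by the number of peaks. The log2 difference of SOX2+/MKI67+ minus SOX2+/MKI67- libraries was 0.68 ± 0.47 (95% interval -0.42 to 1.78) at Gli1, -0.12 ± 0.43 (-1.11 to 0.87) at Gli2 and -0.69 ± 0.68 (-2.27 to 0.88) at Gli3. The limma adjusted p was 1 for each, and 0.987 with the single-value genes left out. All 3 intervals include 0. The Gli1 value depended on which libraries were kept, being 0.14 without SOX2+/MKI67- replicate 1 and 1.21 (95% interval 0.01 to 2.41, limma adjusted p = 0.916) without SOX2+/MKI67- replicate 2. The Gli3 value was -1.13 and -0.26 without these same libraries and -0.39 without SOX2+/MKI67+ replicate 1.

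The rule for a region listed only in cycling or only in non-cycling cells, 2 of 2 libraries against 0 of 2, was met by 3 regions, all at Gli2. The Gli2 start region and the region at 98.6 kb were listed in both SOX2+/MKI67+ and neither SOX2+/MKI67- library, which is 2 of 33 GLI regions against 4.03% of all regions. In the opposite class, 1 of 33 regions, chr1:118895192-118895673 at 158.2 kb from the start, stood against 0.972% of all regions. It was also listed in SOX2+ replicate 4 and in no SOX2- library, with ranks of 34.9 and 43.6 in the SOX2+/MKI67- lists. Counts this small lie near the background share. With the 7009 strongest peaks of each list, none of the 3 regions met its rule any more. The region past the Gli3 end then met the rule for SOX2+/MKI67-, which is 1 of 4 GLI regions beside 293 of all 13891 regions. In the full lists that region was listed in both SOX2+/MKI67+ libraries too.

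Across libraries the numbers of peaks at the 3 genes were weakly related to each other. After adjustment for list length, the correlation of log2 peaks over the 12 libraries was 0.0635 for Gli1 with Gli2, -0.183 for Gli1 with Gli3 and -0.0360 for Gli2 with Gli3, given as descriptions. Among 11671 genes listed in 6 or more libraries, those most like Gli2 were Ell and Gm52051 (r = 0.912 each) and Ctdsp2 (0.910). Those most like Gli3 were Zmym2 (0.864), Meig1 (0.816) and Snx30 (0.813), and for Gli1 H4c6, Ring1 and Rras had the same r of 0.885. Several of these rest on few peaks, such as 9 in total for each of the 3 like Gli1. They are the highest of 11671 correlations over 12 libraries and were not tested.

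No other gene of the hedgehog pathway passed the same test in the fit as designed. Of 26 further pathway genes, 25 had enough peaks to be tested, and 0 passed in either direction in either comparison. In the SOX2 comparison 14 differences were positive and 11 negative, with a median log2 difference of 0.03 and a mean of -0.12, against a median of 0 over all genes. In the MKI67 comparison the split was again 14 to 11, with a median of 0.23 against -0.02 over all genes. Of 8 GLI-related zinc finger genes of the GLIS and ZIC families, 0 passed in either comparison.

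Ptch1 encodes the hedgehog receptor and is heterozygous in the mice of every group, while its state in the sorted cells was not tested. Among receptors, Ptch1 averaged 3.5 peaks in SOX2+ libraries and 1.75 in SOX2- libraries. Its log2 difference was 0.70 ± 0.25 (limma adjusted p = 0.270), and it lies at chr13:63508328-63573460, on the same proximal part of chromosome 13 as Gli3. Smo, the transducer, had 1.25 peaks in each SOX2 group (log2 difference -0.16, limma adjusted p = 0.955). Boc, a co-receptor that binds the ligand, had the smallest p of the list, averaging 2.0 peaks in SOX2+ libraries and 5.75 in SOX2- libraries. The log2 difference at Boc was -1.04 ± 0.19 (limma adjusted p = 0.0596), and 0.0292 with single-value genes left out, which passes.

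Sufu, the inhibitor that holds GLI proteins in the cytoplasm, averaged 2.0 peaks in SOX2+ libraries and 3.0 in SOX2- libraries (log2 difference -0.53, limma adjusted p = 0.329). Ift88, a transport protein needed for the cilium, had 2.5 against 1.25 (0.62, adjusted p = 0.131). Of the targets, Mycn, a growth-promoting transcription factor, had 4.0 against 2.75 (0.37, adjusted p = 0.172). Sfrp1, a secreted Wnt antagonist, had 0.5 against 2.25 (-1.19, adjusted p = 0.0908, and 0.0417 with single-value genes left out, which passes). Of the genes named here, Boc, Smo, Sufu and Sfrp1 thus shared the negative sign of Gli2, while Ptch1, Ift88 and Mycn had the opposite sign. Over the 25 pathway genes tested, 11 were negative and 14 positive.

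In the MKI67 comparison no gene of the pathway passed. Stk36, a kinase-like regulator of GLI proteins, had 1.0 peak per library in SOX2+/MKI67+ cells and was listed at 0 in SOX2+/MKI67- cells (log2 difference 1.04, limma adjusted p = 0.778). Smo had the same means (0.92, adjusted p = 1). Atoh1, which encodes the factor that granule neuron progenitors depend on, averaged 3.0 peaks with MKI67 and 0.5 without (1.30, adjusted p = 1). Atoh1 is one of the progenitor genes whose list moved with this sort, so its own peaks are part of that shift. The part of such cells here was not tested. Mycn averaged 4.5 and 5.5 (-0.33, adjusted p = 1). Ptch1 and Sufu had differences of 0.47 and 0.45 (adjusted p = 1 for each).

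**Figure D4:**
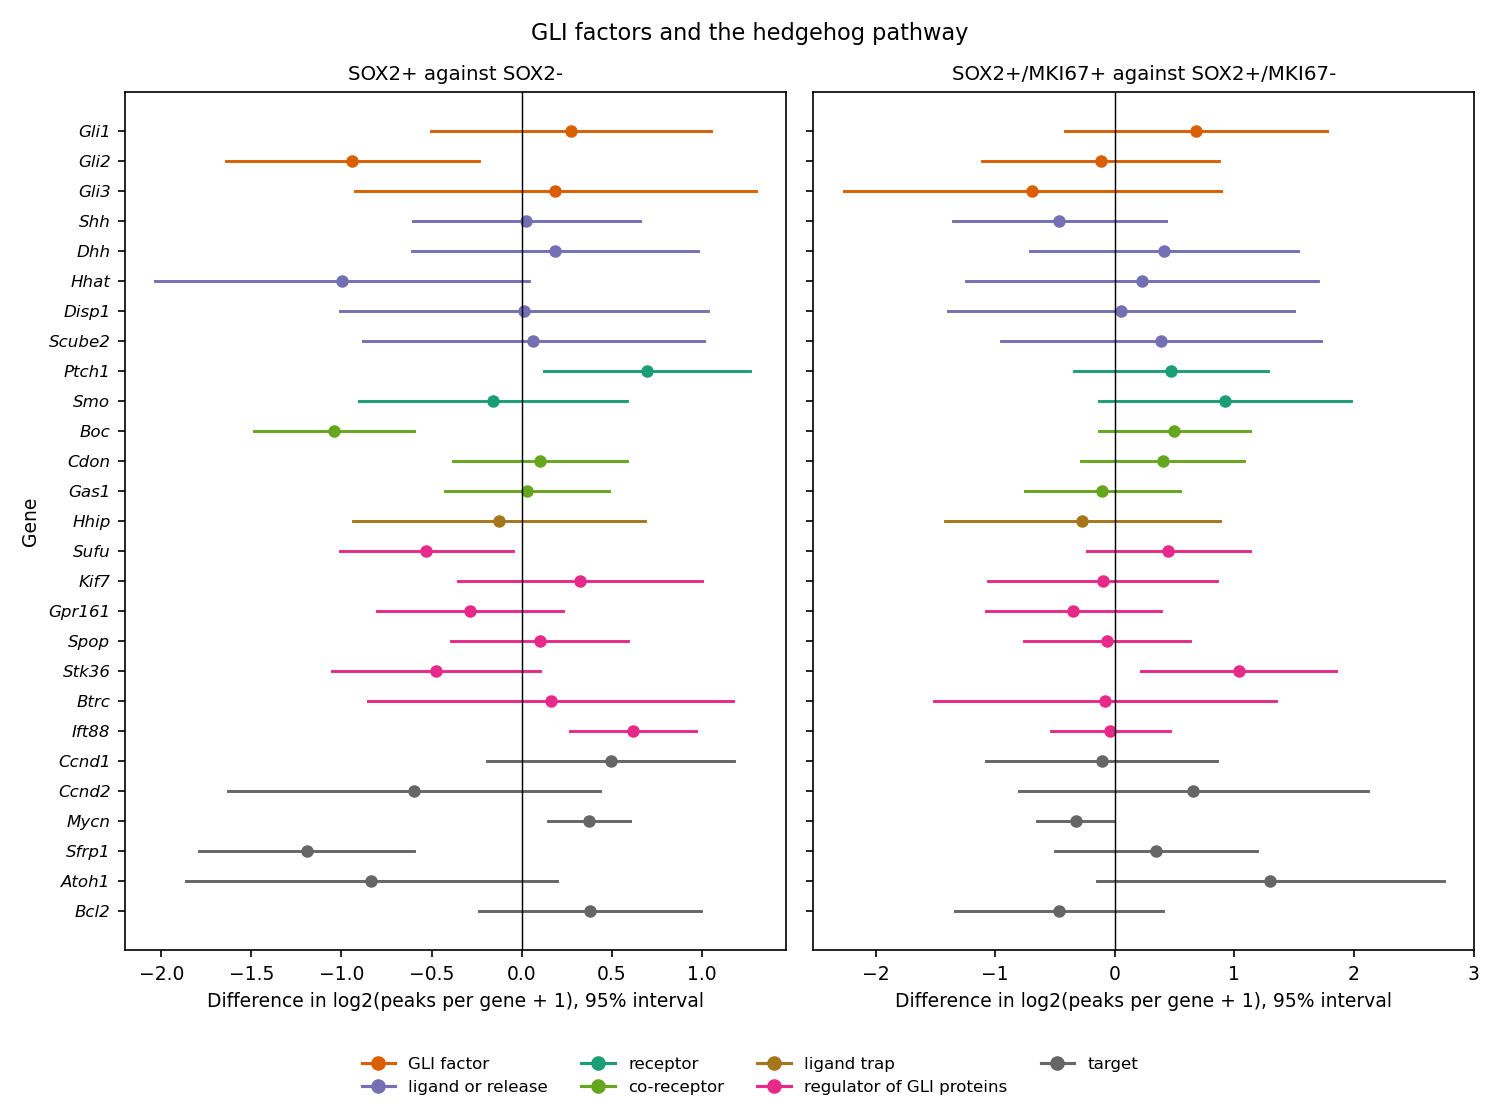
Difference in log2(peaks per gene + 1) (horizontal axis) with its 95% interval for the GLI factors and 24 of the 25 tested pathway genes (vertical axis), coloured by role, in the SOX2 comparison (left) and the MKI67 comparison (right). At left the interval of Gli2 runs from -1.64 to -0.24, and those of Boc, Sufu and Sfrp1 also lie under 0. Those of Ptch1, Ift88 and Mycn lie over 0, and those of Gli1 and Gli3 span 0.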

How the data were processed

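Open chromatin was measured in 12 ATAC-seq libraries of sorted tumour cells. Each reaction took 35000 to 50000 cells and gave single-end reads of 50 bp, per the labels' protocols. Bowtie2 and MACS2 are the tools and mm10 the build in the submitters' processing notes, and each library has a peak list of its own. Versions, settings, duplicate handling and any transposase offset are not given in the sources used here. Each deposited list holds, per peak, the authors' score, fold ratio over local background, -log10 p-value and -log10 q-value. Score and q-value were used to rank peaks within a list. Read counts were not used, so depth is unknown and list length stands in for it.

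Peaks were given to the nearest of 21631 protein-coding genes within 100 kb (RefSeq table of GRCm38.p6, the assembly of mm10) and merged into regions at an overlap of 1 bp. The test was limma 3.58.1 (eBayes with trend, R 4.3.3) on log2(peaks per gene + 1), which understates changes of genes with few peaks. The fit held 12 libraries in 4 groups with log10 of list length as covariate, over genes listed in 2 or more libraries. Adjusted p-values are Benjamini-Hochberg values across every gene in the fit, with 0.05 as the threshold. The fit was tested on simulated data first. Named regions are those in 8 or more libraries or listed only in 1 group. Named pathway genes are Ptch1, Smo, Sufu, those that passed and the 5 smallest p-values of each comparison, 1 of which is not reported here. The GLI genes and all lists were chosen with earlier results of these data known. Alternatives varied the peaks used, the filter, pseudocount, covariate, distance, measure, samples and replicates. RefSeq promoters were matched for Gli2 and Gli3.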

Additional observations from a re-analysis of the deposited data

How the results depend on the processing

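No GLI gene passed in any of 134 alternatives (lowest limma adjusted p 0.0706), and the sign turned in 9 of them. In the other 125 it did not turn, with 1 at a difference of 0. The sign stayed in all alternatives that gave a value for Gli1 (0.05 to 0.89 in the SOX2 and 0.14 to 1.27 in the MKI67 comparison) and for Gli2 in the SOX2 comparison (-1.33 to -0.71). Gli3 in the SOX2 comparison turned to -0.14 with the upper part of each list, -0.52 with peaks within 10 kb and -0.41 with the chromosome 13 covariate, and ranged from -0.19 (without SOX2- replicate 4) to 0.50 with single libraries left out. In the MKI67 comparison Gli2 turned to 1.04 with the upper part and 0.21 without the covariate, and ranged from -0.34 to 0.10 with single libraries left out (positive without SOX2+/MKI67- replicate 2), and Gli3 turned to 0.33 within 10 kb and ranged from -1.13 to -0.26 with single libraries left out. The cause was not tested. With equal peak numbers Gli1 and Gli2 had too few peaks to be tested and Gli3 a difference of 0, and Gli1 had too few with the upper part.

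The number of genes that passed in the SOX2 comparison, 122 as reported, was 227 with equal peak numbers, 69 with the upper part, 417 with covered base pairs, 229 with single-value genes left out (chosen after seeing the data) and 80 to 194 with single libraries left out, lowest without SOX2+ replicate 1 and highest without SOX2+ replicate 2. The split of higher and lower genes, 105 and 17 as reported, was 73 and 133 with the chromosome 13 covariate, 146 and 81 with equal peak numbers and 310 and 107 with covered base pairs. In the MKI67 comparison the number, 30 as reported, was 55 with equal peak numbers, 11 with a peak in at least 4 libraries, 2 with covered base pairs, 322 with only the libraries of that sort, 0 with single-value genes left out (limma, 691 at an unadjusted p under 0.05) and 31 to 78 with single libraries left out, highest without SOX2+ replicate 4. A group left with 1 library is assumed to vary like the others. The GLI regions listed only in SOX2- libraries were 0 to 2 with single libraries left out, 2 without SOX2+ replicate 3, and those listed only in SOX2+/MKI67+ libraries were 0 with equal peak numbers.

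The replicate number as a block gave 56 genes in the SOX2 comparison and -0.92 at Gli2 (limma adjusted p = 0.349). Same-numbered SOX2+ and SOX2- libraries had correlations of 0.0157, 0.338, 0.0662 and -0.188, and not every library correlated best with its own number, so the numbers were not used to pair samples.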
